A study of Homo sapiens with 6 samples.

Results

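The 54 genes described here encode the machinery that licenses, starts and runs DNA replication forks. They were taken from a list of gene symbols, each matched to 1 Ensembl identifier of the deposited table, and make up 54 of its 63677 genes. Each of the 54 passed the filter on low counts (a sum above 10) and entered the test. By role they fell into 7 subgroups: 10 licensing genes, 12 genes of the helicase, 5 origin-firing genes, 9 polymerase and primase genes, 9 genes of the sliding clamp, its loaders and the ligase, 7 fork-protection genes, and 2 chromatin-assembly genes.

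Poly(A) RNA was sequenced from UWB1.289, an established human ovarian cancer cell line that lacks functional BRCA1 (its genotype is labelled WT, and all 6 samples share it). Per condition, 3 dishes were prepared, with Olaparib, an inhibitor of the PARP enzymes, or only its solvent DMSO, for 24 h. The study's methods give 3 independent replicates for each readout, and each group has 3 samples. Whether each sample is 1 of these dishes is not stated. The sample labels and the study's methods put the Olaparib dose at 4 µM, but 10 µM is written in the series' own design text. Both groups are 1 cell line at 1 time, so p-values measure the spread between replicates of that line.

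DNA replication begins with licensing. In G1 the origin recognition complex (ORC), CDC6 and CDT1 load the MCM2-7 ring, in an inactive form, onto DNA. At the start of S phase the DBF4-dependent CDC7 kinase, TICRR and TOPBP1 help CDC45 and the GINS complex to join MCM2-7, which turns it into the active helicase. Polymerase alpha and primase then start each strand, polymerases epsilon and delta extend them on the PCNA clamp, and RPA, CLSPN, TIMELESS and TIPIN protect the exposed fork. Licensing is restricted to 1 round per cycle partly by geminin (GMNN) and partly by the ubiquitin ligase adaptor DTL, which marks CDT1 for destruction on PCNA-bound DNA. Many of these genes are transcribed under E2F factors.

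Total counts were 35360458 to 39640775 per sample, and mitochondrial genes took 5.68% to 6.11%. Replicates of 1 condition differed by more than sampling noise, with a chi-square per degree of freedom of 1.81 to 4.11 over 15525 genes. The 2 highest values were the pairs that hold DMSO replicate 1. Those that hold Olaparib replicate 1 followed, at 3.80 and 3.35, beside 2.28 for the other Olaparib pair. EPCAM, KRT7, KRT8, KRT18 and PAX8, markers of Müllerian and epithelial carcinoma, were at 158 TPM or above in every sample. TPM is a transcript level per length, scaled to 1 total for all samples. MUC16 was at 1.98 to 2.43 TPM, and WT1 had at most 2 counts. WT1 fell under the filter on low counts and was not tested. Of the other carcinoma markers only PAX8 passed the test (log2 fold change 0.10, edgeR adjusted p = 0.0399). Of 9 markers of leukocytes, endothelium and fibroblasts, PECAM1 and LUM were at 0 in every sample, and the summed level was 22.3 to 23.2 TPM in Olaparib and 22.9 to 24.4 TPM in DMSO, nearly all of it CDH5. Of these markers only PTPRC, LYZ, VWF and CDH5 had enough counts to be tested. Among them VWF alone, at 0.261 to 0.446 TPM, passed the test (log2 fold change 0.68, edgeR adjusted p = 0.0106). The part of VWF in the results was not tested.

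The 54 genes as a group moved little. Of them, 1 rose (POLD2) and 2 fell (DTL and MCM6). A gene was called at an adjusted p under 0.05 by edgeR's quasi-likelihood fit, with p-values adjusted over 21729 genes after Benjamini and Hochberg. The 3 called genes are 5.56% of the members, beside 3.36% of all genes tested. By direction, 1.85% of the members rose beside 2.15% of all genes, and 3.70% fell beside 1.21%, where 1 and 2 genes stand behind the members' shares. All members are well expressed, and among the 8216 genes with at least the lowest member's mean of 639 normalized counts the called share was 5.84%, with 4.02% higher and 1.83% lower. The total share of members called was thus near that of genes at their own level.

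The median log2 fold change (Olaparib against DMSO, negative where Olaparib was lower) was 0.0059 over the 54 genes, beside -0.0042 over all genes tested. The values ran from -0.32 to 0.12, with 31 above 0 and 23 below. The median standard error was 0.040, and for 51 of the 54 genes the 95% interval lay within a 1.2-fold change in either direction (0.263 on the log2 scale). The exceptions were DTL, MCM6 and CLSPN. Among the 8216 genes at the members' level the same held for 96.7%. Only DTL passed both the adjusted p and a fold of 1.2, a pair of criteria that 1.21% of all genes met.

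**Figure D1:**
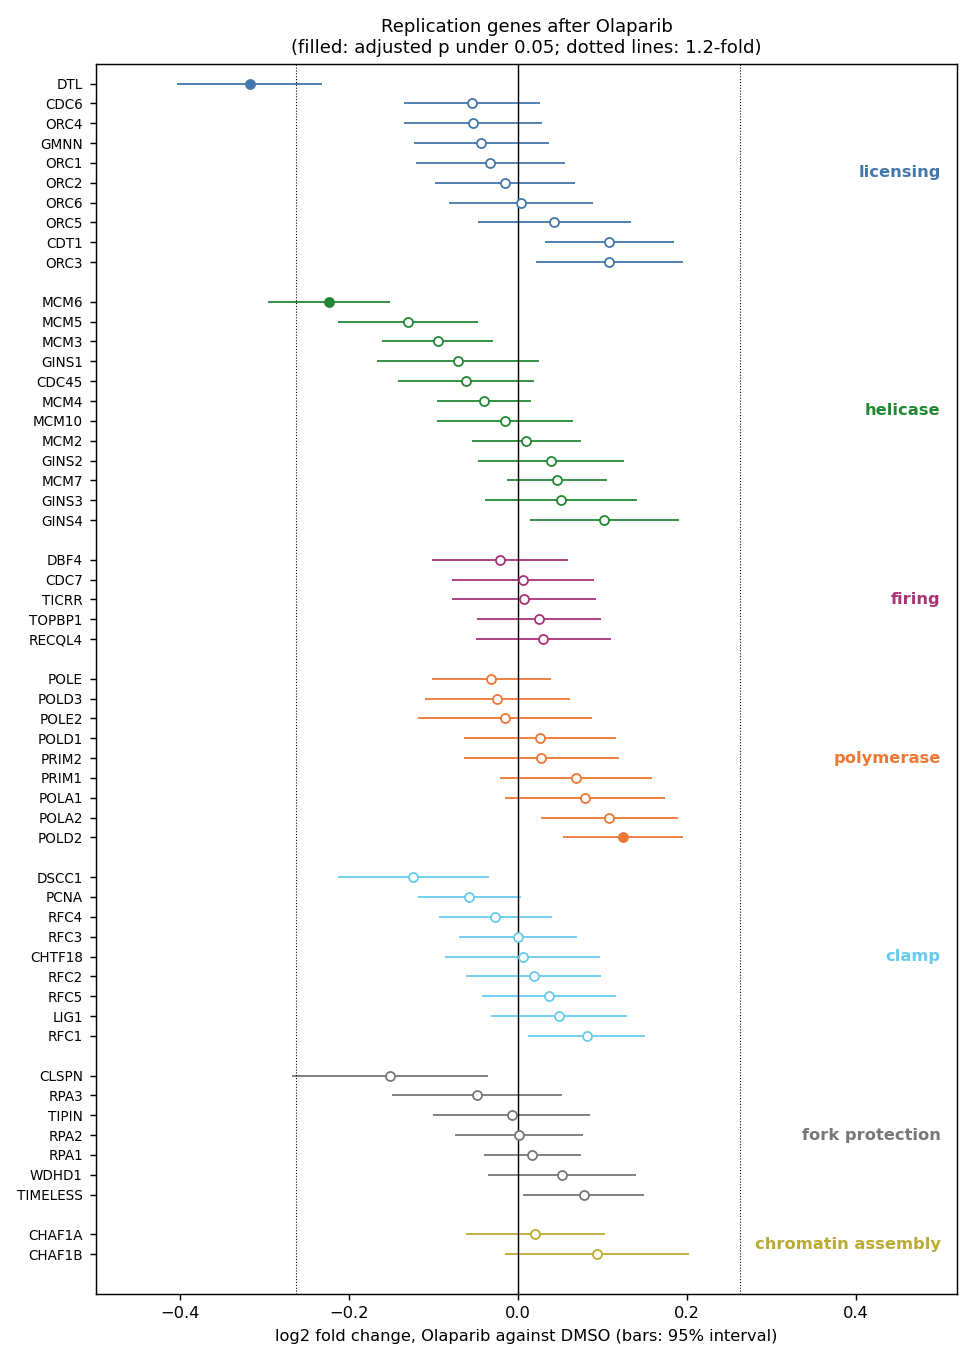
Log2 fold change of each of the 54 replication genes, Olaparib against DMSO (x axis), with its 95% interval as a bar, ordered within the 7 subgroups (colours); filled points have an adjusted p under 0.05. DTL at -0.32 and MCM6 at -0.22 lie left of all others, POLD2 at 0.12 is the filled point on the right, and the remaining values crowd around 0.

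Without adjustment, 13 members had p under 0.05 (24.1%), 7 higher and 6 lower, beside 14.8% of all genes tested and 21.9% of the 8216 genes at their level. In 16 members (29.6%) the 3 Olaparib values did not overlap the 3 DMSO values, 7 higher and 9 lower, beside 19.3% of all genes and 25.9% of the genes at their level. Both shares were nearer to those of genes at the members' level than to those of all genes.

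**Figure D2:**
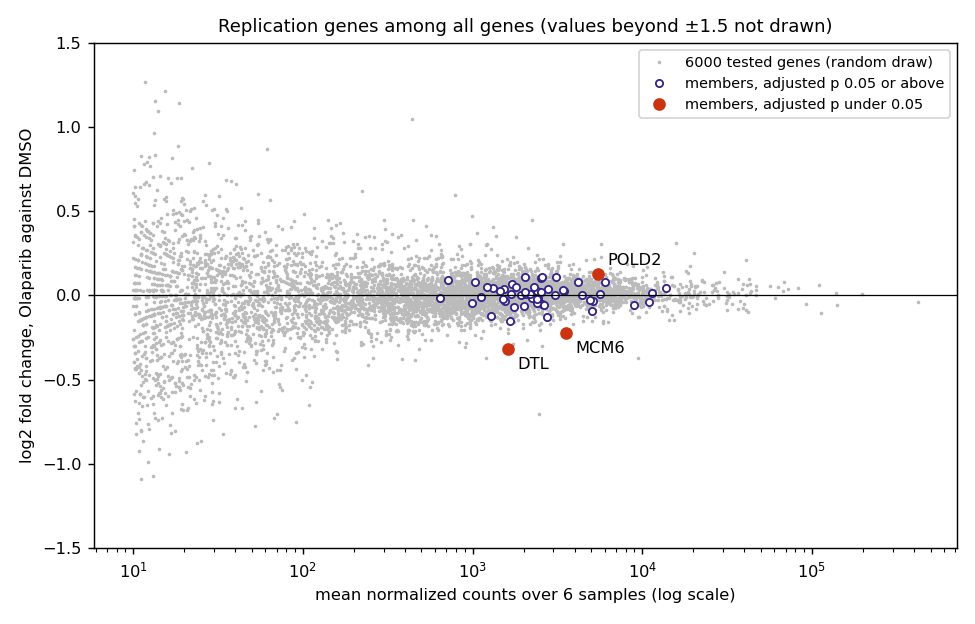
Log2 fold change (y axis) against mean normalized counts over the 6 samples (x axis, log scale) for a random draw of 6000 tested genes with a mean of 10 or more (grey) and the 54 replication genes (circles; filled red where adjusted p is under 0.05). The members lie at 639 normalized counts and above, where all genes spread less. DTL and MCM6 lie below and POLD2 above most genes of that level, whose values ran from -1.27 to 0.94.

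Because many replication genes are known E2F targets, the 250 bases before each gene's RefSeq start (GRCh38.p14) were searched for the E2F letters TTTCCCGC, TTTCGCGC, TTTGCCGC or TTTGGCGC on either strand. An entry was found for 46 of the 54 members, not for MCM4, MCM5, GINS4, RECQL4, POLD3, DSCC1, RPA2 and RPA3. Of these 46 promoters, 13 (28.3%) held the letters, beside 2.79% of 27305 promoters of the same length. By subgroup they were in 3 of 10 licensing, 4 of 9 helicase, 3 of 8 polymerase and 3 of 8 clamp promoters, and in none of 5 fork-protection, 4 firing and 2 chromatin-assembly promoters. CCAAT was in 58.7% of the members' promoters (33.0% of all), the GC box GGGCGG in 73.9% (42.3%), and the letters TTTGAA of the CHR element in none of 46 (13.6%), all on either strand. In 25 promoters of replication genes that are not members, the E2F letters were in 8%. There CCAAT was in 52%, the GC box in 60% and TTTGAA in 12%, so for CCAAT and the GC box these genes were nearer to the members than all promoters were. A match is a run of letters and not a measured binding site, and a promoter without a match may still hold a site.

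The promoter of MCM6 held 4 of the matches, more than any other member, and is shown whole. It is chr2:135876444-135876693, minus strand, GRCh38.p14, written 5′ to 3′ in the direction of transcription and ending just before the start. Capitals mark the E2F letters. They form the same 12-base run at both places, since TTTGGCGC and, on the other strand, TTTCGCGC overlap there.
MCM6 promoter: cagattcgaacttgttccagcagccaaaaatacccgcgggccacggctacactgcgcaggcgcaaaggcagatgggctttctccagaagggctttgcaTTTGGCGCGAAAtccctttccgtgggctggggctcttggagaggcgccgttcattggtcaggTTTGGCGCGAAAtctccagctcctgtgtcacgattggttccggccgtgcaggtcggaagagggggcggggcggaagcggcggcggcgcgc

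The match nearest the start in each of the 13 promoters is shown next with 10 bases on either side, to let the shared letters be read across subgroups. Lower-case bases flank it, capitals mark every E2F match that falls in the stretch, and a match on the other strand reads as its reverse complement (GCGGGAAA for TTTCCCGC, for example). Positions are GRCh38.p14, and sequences run in each gene's own direction. The RefSeq start used for the search is not always the outer end of the gene in GENCODE, which gave the gene positions printed elsewhere. The stretches of ORC3, DTL, MCM7, GINS2, POLE, RFC3 and LIG1 lie inside the GENCODE gene, and that of POLA2 spans its edge. For these genes the bases searched were thus not all upstream of the GENCODE gene.
ORC3 (chr6:87590113-87590140, plus strand): gcgagggcgcGCGGGAAAtcccgagtgc
CDT1 (chr16:88803744-88803771, plus strand): cagggcgcccGCGGGAAAtttggcggga
DTL (chr1:212035730-212035757, plus strand): gtgacgtcagTTTGGCGCggagtttggc
MCM3 (chr6:52284899-52284926, minus strand): ggatggtacgTTTCCCGCcaccgcgggg
MCM6 (chr2:135876512-135876539, minus strand): gtcaggTTTGGCGCGAAAtctccagctc
MCM7 (chr7:100101389-100101416, minus strand): gggggcgacgTTTCGCGCcaatttcggt
GINS2 (chr16:85688968-85688995, minus strand): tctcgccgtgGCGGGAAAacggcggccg
POLA1 (chrX:24693771-24693798, plus strand): tcatcacaggGCGCCAAAcgcgcgtccg
POLA2 (chr11:65261899-65261926, plus strand): tggctcccggTTTCGCGCatgcgtgcac
POLE (chr12:132687343-132687370, minus strand): gggtgggagcGCGCCAAAtttctcccct
PCNA (chr20:5126664-5126691, minus strand): agcgtcagggGCGGGAAAaggcgtgcgt
RFC3 (chr13:33818084-33818111, plus strand): tttggagctcGCGGGAAAacttgtctct
LIG1 (chr19:48170441-48170468, minus strand): cttcacccctTTTCCCGCcctcctccca

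Both genes that fell, DTL and MCM6, are among these 13, and POLD2, which rose, is not. In DTL the match lies 8 bases before the RefSeq start to the base next to it, which is inside the gene as GENCODE places it. The rest of the 13 did not pass the test, and they include the highest licensing values, CDT1 and ORC3. The 13 genes with the letters had a median log2 fold change of 0.039, from -0.32 to 0.11, with 5 below 0. The 33 without them had a median of 0.0068, from -0.15 to 0.12, with 13 below 0. These 33 lack the letters in the bases searched and were not shown to lack E2F control. In both sets most genes were above 0.

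Among the 10 licensing genes, DTL fell and none rose. DTL is the substrate receptor of the CRL4 ubiquitin ligase that removes CDT1 during S phase. Its promoter is 1 of the 13 with the E2F letters. Its normalized counts were 1490, 1409 and 1422 in Olaparib replicates 1, 2 and 3, and 1805, 1779 and 1802 in the DMSO replicates. Every Olaparib sample lay below every DMSO sample, and the gap between the groups was wider than the range within either. The log2 fold change was -0.32 (SE 0.042, 95% interval -0.40 to -0.23, edgeR adjusted p = 6.01e-06), so that DTL fell by 19.8%. The log2 value stayed between -0.34 and -0.30 when each sample in turn was left out. DTL (ENSG00000143476) lies on chromosome 1 at 212035553 to 212107400, plus strand, in GRCh38.

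CDT1, the loading factor that DTL targets, and ORC3, a subunit of the origin complex, had the highest values of the licensing genes, and neither passed the test. CDT1 read 3198, 3300 and 3127 normalized counts in Olaparib and 2985, 2981 and 2963 in DMSO. These groups did not overlap, and the log2 fold change was 0.11 (SE 0.037, edgeR adjusted p = 0.116). ORC3 also did not overlap, at 2236, 2012 and 2122 against 1995, 1926 and 1990, with a log2 fold change of 0.11 (SE 0.043, edgeR adjusted p = 0.188). The ratio of DTL to CDT1, both as TPM, was 0.281, 0.258 and 0.275 in Olaparib and 0.365, 0.361 and 0.367 in DMSO. The exact permutation test gave p = 0.1, the smallest that 3 against 3 allows (two-sided, 0.114 after adjustment over 8 ratios and shares). It could thus not fall under 0.05, and the ratio rests on the same counts as the tests of DTL and CDT1.

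The other licensing genes were closer to 0. CDC6, the ATPase that works with ORC, was at -0.054 with no overlap between groups, at 2512 to 2619 normalized counts in Olaparib and 2623 to 2764 in DMSO. GMNN, the CDT1 inhibitor, was at -0.043. The 6 ORC subunits had a median of -0.0059 and ran from -0.054 (ORC4) to ORC3, with ORC1 at -0.033, ORC2 at -0.016, ORC5 at 0.043 and ORC6 at 0.0038. The median of the 10 licensing genes was -0.024.

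Among the 12 helicase genes, MCM6 fell and none rose. MCM6 is 1 of the subunits of the MCM2-7 ring. Its promoter is the one shown whole. It had 3326, 3279 and 3260 normalized counts in Olaparib and 3781, 3887 and 3850 in DMSO. As for DTL, the groups were apart by more than the range within either. The log2 fold change was -0.22 (SE 0.035, 95% interval -0.30 to -0.15, edgeR adjusted p = 9.91e-05), so that MCM6 fell by 14.3%. The log2 value was -0.23 to -0.21 with each sample left out. MCM6 (ENSG00000076003) lies on chromosome 2 at 135839626 to 135876443, minus strand.

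The other subunits of the ring, which assemble with MCM6 in equal number, did not pass the test. MCM5 read 2552, 2738 and 2550 normalized counts in Olaparib and 2749, 2922 and 2906 in DMSO, groups that only just did not overlap, with a log2 fold change of -0.13 (SE 0.041, edgeR adjusted p = 0.0732). Of the alternative fits without a replicate block, it passed with upper-quartile factors (-0.14, edgeR adjusted p = 0.0492), without Olaparib replicate 2 (-0.16, edgeR adjusted p = 0.0339) and without DMSO replicate 1 (-0.16, edgeR adjusted p = 0.0273). MCM3 was also separate, at 4921, 4937 and 4801 against 5301, 5197 and 5157, with a log2 fold change of -0.095 (edgeR adjusted p = 0.111). MCM4 was separate too, at -0.041, and MCM2 (0.010) and MCM7 (0.046) overlapped. The 6 genes of the ring thus ran from -0.22 to 0.046, with a median of -0.068.

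Set against the summed TPM of the 6 ring genes, MCM6 made up 6.77%, 6.52% and 6.59% in Olaparib and 7.65%, 7.65% and 7.54% in DMSO. MCM7, the most abundant of the 6 per length, took 42.2%, 43.0% and 43.4% in Olaparib and 40.2%, 40.9% and 41.5% in DMSO. In both the groups did not overlap, with an exact permutation p = 0.1, again the smallest possible (0.114 adjusted over the 8). The shares of MCM2, MCM3 and MCM5 did not overlap either and had the same p-values. That of MCM4 had an exact permutation p = 0.4. The 6 shares add up to the whole, so they are not independent of each other. MCM7 shares 8.49% of its exonic bases with other genes.

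The remaining helicase genes are those of the CDC45-GINS activators and MCM10, a factor that helps the helicase to start. GINS4 had the highest value, 0.10 (SE 0.043, edgeR adjusted p = 0.235), from 2610, 2638 and 2643 normalized counts in Olaparib and 2657, 2343 and 2357 in DMSO. DMSO replicate 1 lay above all Olaparib samples and the other DMSO samples below them. Without that library GINS4 was at 0.16 and passed the test (edgeR adjusted p = 0.0138). Of its exonic bases, 23.4% are shared with antisense genes, and the strand setting of the counting is not given in the sources used here. GINS1 was at -0.071, GINS2 at 0.039, GINS3 at 0.051, CDC45 at -0.062 and MCM10 at -0.016. CDC45 alone of these had groups that did not overlap, at 1960 to 1995 in Olaparib and 2032 to 2076 in DMSO. The median of all 12 helicase genes was -0.028.

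**Figure D3:**
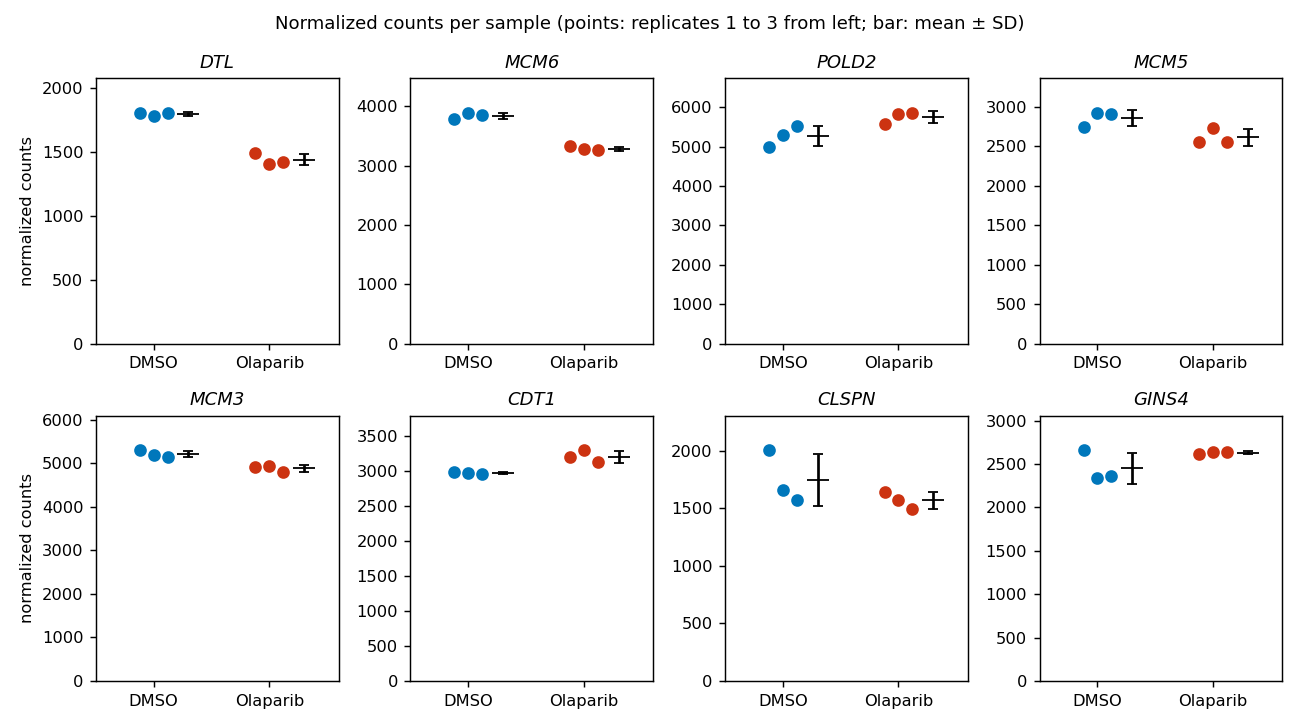
Normalized counts (y axis, from 0) of 8 replication genes in the 3 DMSO (blue) and 3 Olaparib (red) samples, with the mean ± SD beside each group; the 8 are those that passed the test in the main fit or under at least 1 other setting (MCM3 and CDT1 only with the replicate number as a block). DTL and MCM6 show a clear gap between groups, POLD2, MCM5, MCM3 and CDT1 a narrow one, and in CLSPN and GINS4 DMSO replicate 1 lies above the other DMSO samples.

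The 5 genes of origin firing were the flattest subgroup in range. None passed the test, none had separate groups, and the values ran from -0.021 (SE 0.040, edgeR adjusted p = 0.871) for DBF4, the activator of the CDC7 kinase, to 0.030 (SE 0.039, edgeR adjusted p = 0.798) for RECQL4, a helicase needed for initiation. CDC7 was at 0.0063, TICRR at 0.0068 and TOPBP1, a scaffold that also activates the ATR kinase, at 0.025. DBF4 has processed copies in the genome, which together held 181 counts, so reads could be split between them.

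Among the 9 polymerase and primase genes, POLD2 rose and none fell. POLD2 encodes the accessory subunit of polymerase delta, which bridges the catalytic subunit POLD1 and the others. Its normalized counts were 5581, 5825 and 5858 in Olaparib and 5006, 5302 and 5525 in DMSO. The groups did not overlap, but the lowest Olaparib sample was only just above the highest DMSO sample. The log2 fold change was 0.12 (SE 0.035, 95% interval 0.053 to 0.195, edgeR adjusted p = 0.0393), a rise of 9.01%. The call was lost with upper-quartile factors (0.12) and without Olaparib replicate 2 (0.12), Olaparib replicate 3 (0.11), DMSO replicate 1 (0.090) or DMSO replicate 2 (0.13), and over the 6 fits that leave out a sample the edgeR adjusted p was 0.0177 to 0.199. POLD2 (ENSG00000106628) lies on chromosome 7 at 44114631 to 44124358, minus strand.

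The catalytic subunit POLD1 was at 0.026, with 2250, 2523 and 2462 normalized counts in Olaparib and 2239, 2430 and 2436 in DMSO, fully overlapping, and POLD3 was at -0.024. The ratio of POLD2 to POLD1, both as TPM, was 5.30, 4.93 and 5.08 in Olaparib and 4.78, 4.66 and 4.84 in DMSO (exact permutation p = 0.1, the smallest possible; 0.114 adjusted over the 8). Of its exonic bases, POLD1 shares 8.63% with another gene on the same strand.

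The 4 genes of the polymerase alpha-primase complex, which lays down the primer, were all above 0 and none passed. POLA2, its regulatory subunit, was separate at 2598, 2670 and 2715 normalized counts in Olaparib against 2365, 2507 and 2532 in DMSO, with a log2 fold change of 0.11 (edgeR adjusted p = 0.153). POLA1, the catalytic subunit, was separate too, at 0.079. PRIM1 (0.069) and PRIM2 (0.028), the primase subunits, overlapped between groups. Polymerase epsilon, the leading-strand enzyme, was on the other side of 0, with the catalytic subunit POLE at -0.031 (SE 0.034, edgeR adjusted p = 0.747), the lowest value of the subgroup, and POLE2 at -0.016. The median of the 9 genes was 0.028.

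Among the 9 clamp, loader and ligase genes none passed the test, and the median was 0.0054. PCNA, the sliding clamp, had 8846, 8526 and 8822 normalized counts in Olaparib and 8876, 9039 and 9351 in DMSO. These groups only just did not overlap, and the log2 fold change was -0.058 (edgeR adjusted p = 0.372). DSCC1, of the alternative clamp loader that serves sister chromatid cohesion, had the lowest value, -0.12 (SE 0.044, edgeR adjusted p = 0.131), from 1257, 1228 and 1218 against 1386, 1311 and 1338, with no overlap. Its partner CHTF18 was at 0.0054. RFC1, the large subunit of the canonical loader, had the highest value, 0.081 (SE 0.034, edgeR adjusted p = 0.227), at 6576, 5971 and 6125 against 5952, 5941 and 5759. RFC2 (0.019), RFC4 (-0.027), RFC5 (0.036) and LIG1 (0.048), the ligase that joins Okazaki fragments, lay between these, and RFC3 was within 0.001 of 0.

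Among the 7 fork-protection genes none passed the test, and the median was 0.00087. The single-stranded DNA binding complex was close to 0 in its large and middle subunits, with RPA1 at 0.017 and RPA2 at 0.00087, and RPA3 was at -0.048. CLSPN, the mediator that brings CHK1 to ATR, had the lowest value, -0.15 (SE 0.057, edgeR adjusted p = 0.164). Its normalized counts were 1641, 1576 and 1491 in Olaparib and 2002, 1660 and 1571 in DMSO, so the groups overlapped and DMSO replicate 1 alone was far above. CLSPN also had the largest coefficient of variation of the 54 genes in DMSO (13.1%, against a median of 2.29%). Its log2 fold change was -0.22 to -0.040 over the fits that leave out a sample, and of the alternative fits without a replicate block it passed the test without DMSO replicate 3 (-0.22, edgeR adjusted p = 0.0380) and with no filter on low counts (-0.15, edgeR adjusted p = 0.0332).

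TIMELESS, which travels with the fork and couples the helicase to the polymerases, had the highest value of the fork-protection genes, 0.078 (SE 0.035, edgeR adjusted p = 0.273). Its groups did not overlap, at 4259, 4467 and 4201 against 3999, 4121 and 4126. Its partner TIPIN was at -0.0076, and 21.1% of its exonic bases are shared with another gene on the same strand. WDHD1, which tethers polymerase alpha to the helicase, was at 0.052. The 2 chromatin-assembly genes, which encode the histone chaperone CAF-1 behind the fork, were at 0.094 (CHAF1B, SE 0.053, edgeR adjusted p = 0.435) and 0.020 (CHAF1A, SE 0.040, edgeR adjusted p = 0.879), and both overlapped between groups.

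**Figure D4:**
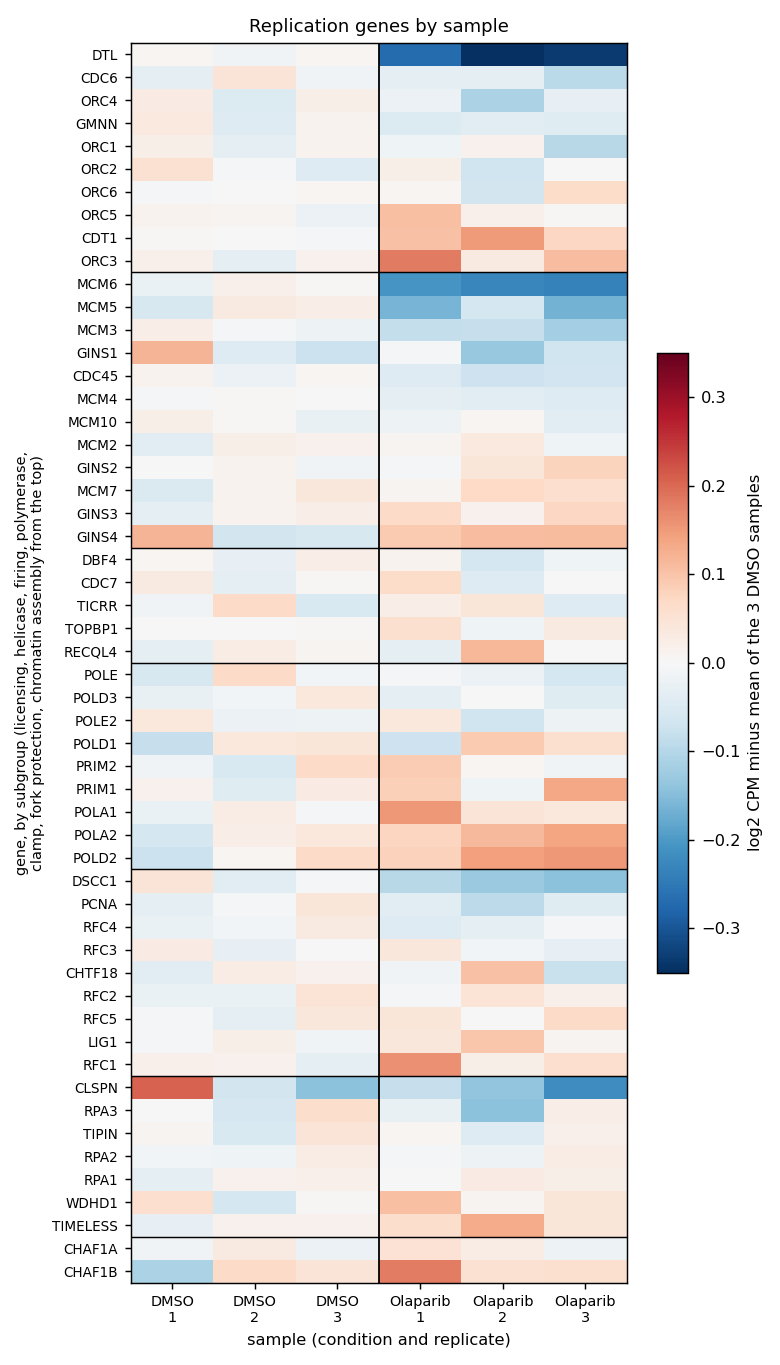
Heat map of the 54 replication genes (rows, by subgroup and then by log2 fold change) in the 6 samples (columns); colour is log2 CPM (counts scaled to 1 total for all samples) minus the mean of the 3 DMSO samples. DTL and MCM6 are blue in all 3 Olaparib columns, POLD2 is red in all 3, and CLSPN, GINS1 and GINS4 are red in DMSO replicate 1.

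Side by side, the medians of the 4 subgroups were -0.024 (licensing), -0.028 (helicase), 0.028 (polymerase) and 0.00087 (fork protection). The polymerase median was 0.060 without DMSO replicate 3, that of licensing -0.0071 without Olaparib replicate 2, that of helicase -0.0067 without DMSO replicate 1, and that of fork protection lay on either side of 0 (-0.014 to 0.014) when 1 sample was left out. Members with separate groups were 4 of 10 in licensing (2 higher, 2 lower), 5 of 12 in helicase (all lower), 3 of 9 in polymerase (all higher) and 1 of 7 in fork protection (higher). Over all genes tested the groups were separate in 19.3%, and among the 8216 genes at the members' level in 25.9% (1273 higher and 856 lower). The differences between subgroups are descriptions and were not tested. Summed, the 54 genes took 0.457% to 0.458% of counts in the Olaparib samples and 0.461% to 0.462% in the DMSO samples.

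Levels between genes were compared as TPM, on the length of each gene's canonical transcript. In DMSO they ran from 8.80 TPM (CHAF1B) to 407 TPM (PCNA), with a median of 38.3. Below PCNA stood MCM7 at 313 ± 6.1 TPM (SD, n = 3), RFC4 at 207 ± 1.7, POLD2 at 187 ± 6.7, MCM4 at 157 ± 1.9 and RPA1 at 133 ± 1.3. Each of these differed from the next by more than their spread. Further down the order the genes crowd, and in 32 of the 53 pairs of neighbours the 2 ranges of DMSO values overlapped. Subunits of 1 complex did not stand at equal levels. In the MCM2-7 ring MCM5 was at 47.2 TPM and MCM7 at 313, and in polymerase delta POLD3 was at 22.8 and POLD2 at 187. MCM6 was at 58.4 ± 0.68 TPM in DMSO and 49.7 ± 0.87 in Olaparib, and DTL at 23.3 ± 0.39 and 18.5 ± 0.69.

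**Figure D5:**
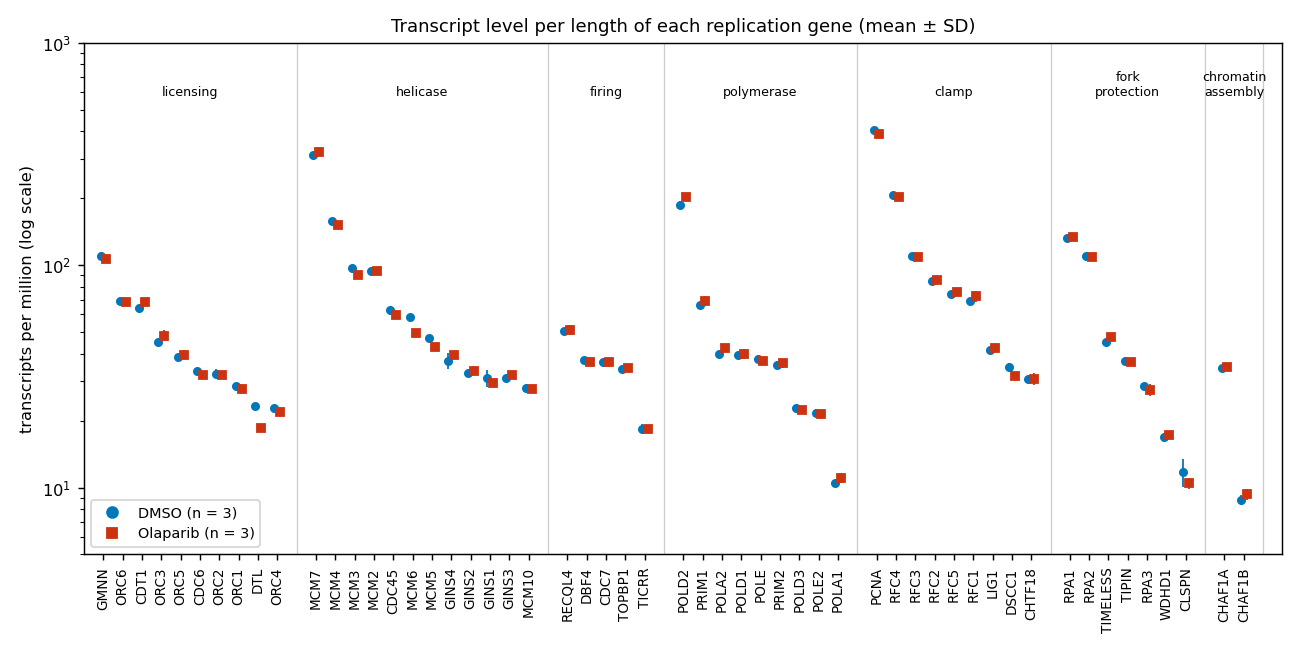
Level in TPM (y axis, log scale) of each of the 54 genes in DMSO (blue circles) and Olaparib (red squares), mean ± SD of 3 samples, ordered by level within each subgroup. PCNA at 407 and MCM7 at 313 TPM in DMSO stand highest, CHAF1B at 8.80 lowest, and the symbols of both conditions lie close together at nearly all genes, with DTL and MCM6 among the visible gaps.

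In 30 further replication genes that are not members (among them FEN1, DNA2, RIF1 and the histone chaperones ASF1A and ASF1B), 1 rose and none fell. It was CIZ1, a cyclin-binding factor that promotes initiation, at 4203, 4244 and 4141 normalized counts in Olaparib and 3774, 3864 and 3895 in DMSO. The groups did not overlap, and the log2 fold change was 0.13 (SE 0.034, edgeR adjusted p = 0.0319). The call was lost without Olaparib replicate 2 (0.12) or 3 (0.13) and without DMSO replicate 1 (0.12), 2 (0.13) or 3 (0.13). The median of the 30 was 0.024. The share called was 3.33%, beside 3.36% of all genes and 5.84% of the 8216 genes at the members' level. An unadjusted p under 0.05 was found in 7 of the 30 (23.3%), beside 14.8% and 21.9% in the same order. POLD4, MCM9 and ATAD5 had means under that level's bound of 639 normalized counts. The called share was near that of all genes, and the unadjusted share was nearer to that of the 8216 genes.

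Some cell cycle genes moved in the same samples. CCNE2, a cyclin of the G1 to S transition, fell by 0.38 on the log2 scale (edgeR adjusted p = 3.65e-05), while its paralog CCNE1 rose by 0.16 (edgeR adjusted p = 0.00580). Of the exonic bases of CCNE2, 37.1% are shared with antisense genes. TOP2A and CCNB1, which peak in G2 and mitosis, rose by 0.29 (edgeR adjusted p = 1.48e-07) and 0.14 (edgeR adjusted p = 0.00297). MKI67 was at -0.054, CCNA2 at 0.077, E2F1 at -0.13 and CDKN1A at 0.28, with none of these passing. In bulk RNA, a change in the share of cells in S phase and a change in RNA per cell cannot be told apart, and the part of the cell cycle in the values of DTL, MCM6 and POLD2 was not tested.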

How the data were processed

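RNA-seq read counts per gene of 6 samples were used. Per the study's methods, the authors used Trimmomatic to trim adapters, STAR to map to GRCh38, Picard to mark PCR duplicates and featureCounts to count per gene. The deposited values are whole-number counts without normalization. The library kit is stranded, and the strand setting of the counting is not given in the sources used here.

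Genes with more than 10 counts in total were kept (21729 of 63677), the study's own filter. The test was the quasi-likelihood test of edgeR 4.0.16 in R 4.3.3 with TMM factors and Benjamini-Hochberg adjustment over all genes, called at an adjusted p under 0.05. The study used DESeq2. Here DESeq2 1.42.0 and limma 3.58.1 were alternatives, beside other size factors, other filters, a replicate block and leaving out each sample. Normalized counts are counts scaled by TMM to a common library size. TPM, gene positions and exonic overlap used GENCODE 44. Ratios and shares were tested with two-sided exact permutation tests. The edgeR, limma and DESeq2 fits were tested on simulated counts, and the other steps were not.

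Full statistics are given for members with an adjusted p under 0.05 and for the highest and lowest value of each subgroup, and further members are named with their values. Of the other replication genes, those that passed are named. The members and lists were chosen with earlier results of these data known. Intervals and totals cover no error beyond these samples.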

Additional observations from a re-analysis of the deposited data

How the results depend on the processing

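The falls of DTL and MCM6 passed the test under all 13 alternative fits (other tools, factors, filters, the block, and 6 that leave out a sample). The rise of POLD2 was lost in 5 of them. With the added 1.2-fold criterion, 262 genes were called in all, 0 members higher, 1 lower (DTL) and 0 of the other replication genes. DESeq2 called 520 genes and limma 671, and both called the same 3 members. With upper-quartile factors, which moved the median of all genes to -0.013, 0 members were called higher, and the median was -0.0032 for the members, -0.0037 for the clamp genes, -0.0024 for firing and -0.0081 for fork protection.

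Same-numbered samples did not all deviate together (correlations 0.0039, 0.28 and -0.14 over 10144 genes). Olaparib replicate 2 correlated best with its own number, but Olaparib replicate 3 with DMSO replicate 1 (0.32). The main fit therefore used no pairing, though these correlations cannot exclude one. With the replicate block, 1322 genes were called, with 2 members higher (POLD2 and CDT1 at 0.11), 5 lower (DTL, MCM6, MCM5 at -0.13, MCM3 at -0.095 and CLSPN at -0.15) and 2 of the other replication genes. The edgeR adjusted p with the block was 0.0443 for CDT1, 0.0205 for MCM5, 0.0282 for MCM3 and 0.0336 for CLSPN.

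Leaving out 1 sample gave 398 (without DMSO replicate 2) to 870 genes called (without Olaparib replicate 1). It gave 401 without DMSO replicate 3 and 439 without Olaparib replicate 3. Members called higher were 0 to 1, and 0 to 2 of the other replication genes were called. The median was then 0.0023 to 0.011 for the members, -0.035 to -0.0071 for licensing, -0.036 to -0.0067 for helicase, -0.0010 to 0.024 for firing, 0.023 to 0.060 for polymerase, 0.0047 to 0.018 for the clamp genes, -0.014 to 0.014 for fork protection and 0.029 to 0.082 for chromatin assembly.

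The log2 fold change changed sign in at least 1 alternative in 14 members, each within 0.031 of 0 and with an edgeR adjusted p of at least 0.747 in the fit reported. The ranges with 1 sample left out were -0.040 to 0.012 (ORC2), -0.030 to 0.037 (ORC6), -0.0057 to 0.020 (MCM2), -0.021 to 0.032 (CDC7), -0.022 to 0.040 (TICRR), -0.015 to 0.062 (RECQL4), -0.0016 to 0.060 (PRIM2), -0.011 to 0.075 (POLD1), -0.057 to 0.0027 (POLE), -0.042 to 0.011 (POLE2), -0.018 to 0.017 (RFC3), -0.045 to 0.044 (CHTF18), -0.014 to 0.012 (RPA2) and -0.034 to 0.014 (TIPIN). With upper-quartile factors the values were -0.0051 (ORC6), -0.0028 (CDC7), -0.0024 (TICRR), -0.0091 (RFC3), -0.0037 (CHTF18) and -0.0081 (RPA2). With edgeR's own expression filter they were -0.0023 (RFC3) and -0.0014 (RPA2, also the fork-protection median), and RFC3 was at -0.00021 with the replicate block. The causes of these changes were not tested. Precision is limited by 3 samples a group, at a median standard error of 0.040 for a member.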
